A study of Mus musculus with 6 samples.

Results

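The genes described here are 31 members of a group that the annotation in the authors' deposited table ties to the cell cycle, cell division or mitotic nuclear division. They were taken from the rows of that table that hold values, each of which had an unadjusted p-value under 0.05 for Gfi1-KD against Gfi1-KI, so the differences given below are those that chose the members. Exact symbols found 30 genes on 34 probe sets. Brinp1 is listed there under its older symbol Dbc1 and was found by its gene identifier, which makes 31 genes on 35 probe sets, of 45101 probe sets on the array and 1986 non-control rows with values, where rows with 1 symbol name 1513 genes. The members just inside the limit were a Ccar1 probe set and Cdc73, with p-values of 0.0482 and 0.0474 in the authors' deposited table. Rows outside the limit are blank, so no value can be given for genes just beyond it.

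RNA of whole bone marrow from leukemic adult mice, with red cells lysed, had been hybridised to Affymetrix arrays. All mice carried the Vav-1 Nup98/HoxD13 transgene, which encodes a leukemia fusion protein under a promoter active in blood cells. Of these, 3 mice were Gfi1 KI and 3 were Gfi1 KD, with 1 array for each mouse and, per the study's design text, the same age. As background that the labels do not give, KI stands for a human GFI1 sequence placed at the mouse locus and KD for a version of that allele with reduced expression. Gfi1 is a transcriptional repressor of blood cell development. It is named by no filled row, so its own level was not analysed here.

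A dividing cell passes from growth through DNA replication to mitosis under the control of cyclins and the kinases they activate. D-type cyclins open the way into replication, while the kinase Wee1 holds cells back from mitosis by phosphorylating cyclin-dependent kinases. Centrosomes and motor proteins build the spindle, and phosphatases such as protein phosphatase 1 reverse mitotic phosphorylation. In bone marrow these steps pace the output of blood cells, and in acute leukemia immature cells continue to divide.

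The promoter sequences of 3 members are shown because Rassf4 had the largest higher difference and Pkn2 the largest lower one among members with a window whose probe set aligns in its gene, and because Ofd1 alone among the 22 members with a window held a longer form of the motif that Gfi1 binds. They come from RefSeq, build GRCm38.p6, run 5′ to 3′ on the gene's own strand, and cover the 250 bases before the gene's start. Capitals mark matches to the motifs named in the next paragraph, on either strand. The Rassf4 window is chr6:116673837-116674086 (minus strand), that of Pkn2 is chr3:142882005-142882254 (minus strand) and that of Ofd1 is chrX:166440705-166440954 (minus strand).
Rassf4: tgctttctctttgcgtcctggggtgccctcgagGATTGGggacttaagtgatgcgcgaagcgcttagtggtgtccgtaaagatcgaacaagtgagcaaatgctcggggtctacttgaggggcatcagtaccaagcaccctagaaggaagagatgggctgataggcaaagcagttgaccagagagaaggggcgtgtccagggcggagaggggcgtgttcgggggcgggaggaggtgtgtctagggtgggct
Pkn2: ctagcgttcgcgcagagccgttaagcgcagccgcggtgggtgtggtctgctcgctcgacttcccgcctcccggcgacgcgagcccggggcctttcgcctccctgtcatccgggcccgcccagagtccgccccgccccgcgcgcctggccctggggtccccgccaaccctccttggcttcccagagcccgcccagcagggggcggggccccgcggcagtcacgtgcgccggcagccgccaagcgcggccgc
Ofd1: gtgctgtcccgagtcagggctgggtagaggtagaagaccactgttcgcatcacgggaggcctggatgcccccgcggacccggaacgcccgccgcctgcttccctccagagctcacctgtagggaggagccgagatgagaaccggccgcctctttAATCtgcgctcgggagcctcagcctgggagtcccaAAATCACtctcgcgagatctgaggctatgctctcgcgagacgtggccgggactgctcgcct

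The capitals in Rassf4 hold a CCAAT box at -216 that overlaps a match to the Gfi1 core, AATC, at -217, both counted from the gene's start. The Ofd1 window holds the core at -96 and -60 and the longer form AAATCAC, which contains the second of these, at -61. The Pkn2 window has no match. RefSeq gave 26 windows for 22 member genes. Among them are windows of Kifc5b, Ppp1cc, Cdc73 and Ppp1cb, whose probe sets align outside the gene or on its opposite strand. Searched on both strands, AATC was in 14 of the 26 (53.8%), against 69.0% of 32851 windows of the same length for all genes, and AAATCAC in 1 (3.85%), against 2.75%. CCAAT, bound by the factor NF-Y, was in 6 member windows (23.1%, against 33.8%). TTTGAA, known as the cell cycle homology region in promoters of mitotic genes, was in 3 (11.5%, against 16%), all of them windows of Dclre1a or Vrk1. The E2F forms TTTGGCGC and TTTCCCGC were in 0 of 26, against 1.30%. A match describes letters in these windows and shows no binding. Promoters of Ccnd1, Wee1, Clasp1, Cdk5, Cables1, Becn1, Prkce, Vcpip1 and 2610301H18Rik are not shown or counted.

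The value table of the whole array held MAS5 signals, with a median of 117 to 148 per array, and the authors' deposited table held log2 RMA signals of the same arrays. Across all non-control probe sets, Gfi1-KI replicate 2 had the lowest median Pearson correlation with the other arrays, 0.905, against 0.919 to 0.932. limma, run on the log2 MAS5 signals of 22519 probe sets at or above a level filter of 6.95 with Benjamini-Hochberg adjustment, called none at an adjusted p of 0.05 (0%), while 1217 had an unadjusted p under 0.05. Of the 35 member probe sets 26 were tested, 0 were called and the smallest adjusted p was 0.865, while 6 had an unadjusted p under 0.05. The step-up p in the authors' deposited table was 0.911 for every member. No member difference below therefore passed a test corrected over all probe sets, and each is a description of these 6 arrays.

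Markers of marrow cell types had different group means as well. Of 14 late neutrophil markers, 4 had a filled row (Ceacam10, Itgb2l, Lrg1, Ltf), each with a lower mean in Gfi1-KD, and their summed MAS5 signal was 487 to 5088 on the Gfi1-KD arrays and 22847 to 52195 on the Gfi1-KI arrays. Of 11 monocyte and macrophage markers, 6 had a filled row (among them Csf1r and Cx3cr1), each with a higher mean, and sums of 76093 to 114581 and 35432 to 58399. Of the erythroid list 1 of 10, Epb41, was named, with signals of 1373 to 1646 on the Gfi1-KD and 1817 to 3323 on the Gfi1-KI arrays. The B cell list had 1 of 8 named (Pax5, 90.4 to 117 and 23.2 to 130), the T and NK cell list 1 of 6 (Cd28, 1118 to 2264 and 471 to 642), and the stem and progenitor list 0 of 6. The markers moved in the same comparison that chose the members, and their part in the members' differences was not tested. In whole marrow, fewer cells of a type and less RNA per cell cannot be told apart.

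Across the 35 member probe sets, 13 had a higher and 22 a lower mean RMA signal in Gfi1-KD (62.9% lower), with a median log2 difference of -0.15, Gfi1-KD minus Gfi1-KI as in every difference below. Among all 1986 non-control filled rows of the same table, 1134 were higher and 852 lower (42.9% lower), with a median of 0.14. In genes, by their listed probe sets, 11 members were higher and 20 lower. The differences were small: the fold ran from 1.11 to 1.89 in the higher members (median 1.29) and from 1.08 to 1.60 in the lower ones (median 1.18), and was under 1.2 in 16 of the 35 probe sets. The median size of a difference was 0.28 on the log2 scale, against 0.26 over all filled rows. In none of the 35 did the RMA values of the groups overlap, which held for 99.9% of all filled rows, so nothing is read from it.

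**Figure D1:**
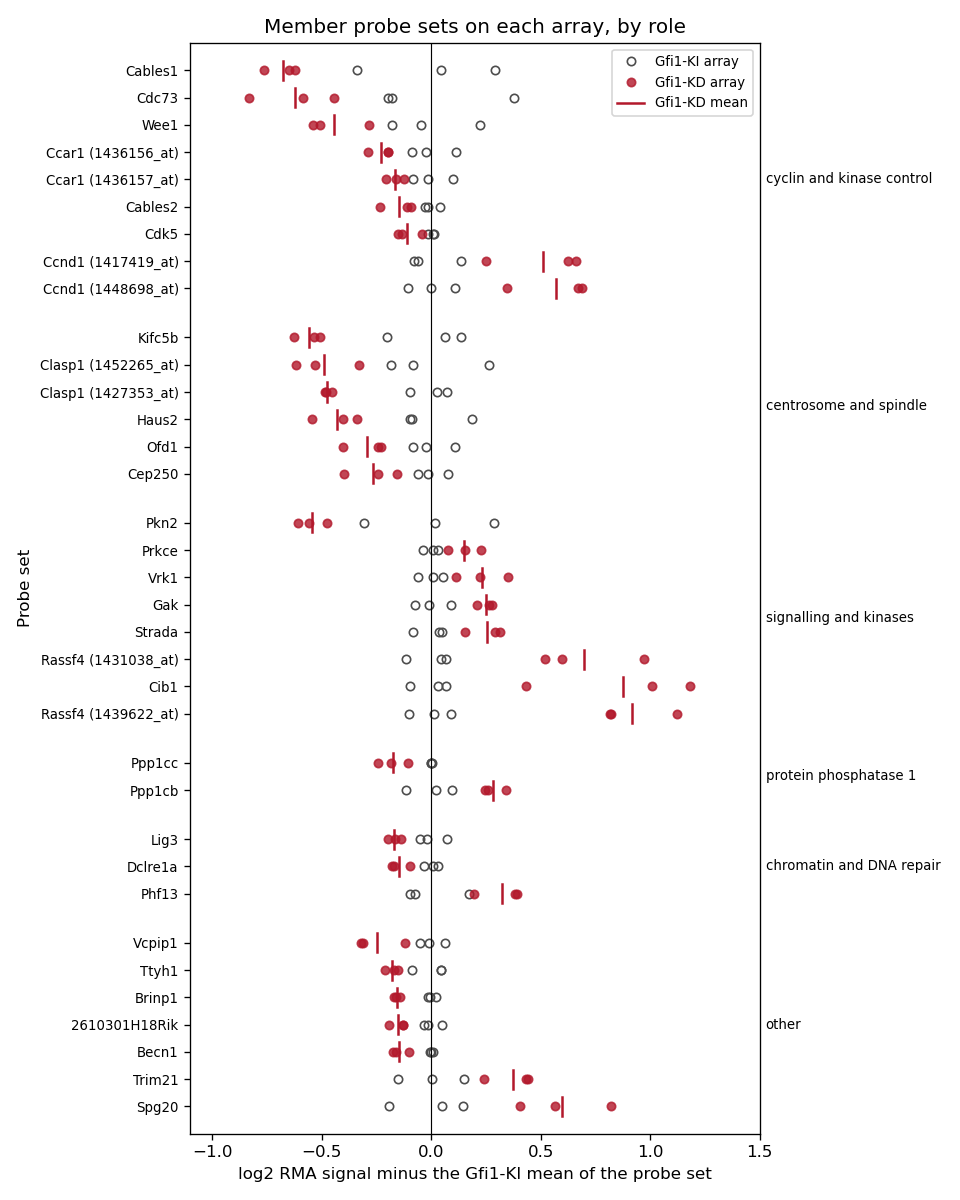
RMA log2 signal of each of the 35 member probe sets on each array, minus the mean of the Gfi1-KI arrays for that probe set, grouped by role. Filled points are the 3 Gfi1-KD arrays with their mean as a bar and open points the 3 Gfi1-KI arrays. Rassf4, Cib1, Spg20 and Ccnd1 lie farthest to the right and Cables1, Cdc73, Kifc5b and Pkn2 farthest to the left.

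Of the 7 genes grouped here under cyclin and kinase control, only Ccnd1 had a higher mean in Gfi1-KD. The grouping is broad, since the roles given below for Cdc73 and Ccar1 are others, and it was made with earlier results known. Ccnd1 (chr7:144929931-144939831, build GRCm38) encodes cyclin D1, the partner of Cdk4 and Cdk6 at the entry into replication. Its probe set 1448698_at had RMA log2 signals of 8.78, 8.44 and 8.76 on Gfi1-KD replicates 1, 2 and 3 and of 7.99, 8.20 and 8.09 on the Gfi1-KI replicates in the same order, which number the arrays and pair none of them. The means were 8.66 ± 0.19 and 8.09 ± 0.11 (SD, n = 3 each), a difference of 0.57 or 1.48-fold. The other Ccnd1 probe set, 1417419_at, read 8.41, 8.03 and 8.45 in Gfi1-KD and 7.73, 7.71 and 7.92 in Gfi1-KI, a difference of 0.51. In both, Gfi1-KD replicate 2 lay lowest of its group and nearest to Gfi1-KI.

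Wee1 (chr7:110122059-110143299), the kinase that delays mitosis, read 10.04, 10.30 and 10.08 in Gfi1-KD and 10.40, 10.81 and 10.54 in Gfi1-KI. Its means of 10.14 ± 0.14 and 10.58 ± 0.20 (SD, n = 3 each) differed by -0.44, or 1.36-fold lower. The highest array was Gfi1-KI replicate 2, and the difference was -0.33 without it. Cdc73 (parafibromin), a subunit of the Paf1 complex of RNA polymerase II and a tumor suppressor, read 7.81, 7.67 and 7.42 in Gfi1-KD and 8.06, 8.63 and 8.07 in Gfi1-KI, a difference of -0.62 (1.54-fold lower). It too was highest on Gfi1-KI replicate 2, and its difference without that array was -0.43.

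Cables1 and Cables2 are adaptors that link cyclin-dependent kinases to other kinases. Cables1 read 3.68, 3.79 and 3.82 in Gfi1-KD and 4.10, 4.49 and 4.73 in Gfi1-KI, a difference of -0.68 (1.60-fold lower), the largest of the lower members. All of these values are low, and its mean MAS5 signal lay below the level filter. Cables2 read 9.18, 9.20 and 9.05 against 9.33, 9.27 and 9.26, a difference of -0.15. Cdk5, a kinase activated by proteins other than cyclins and best known in neurons, read 9.32, 9.21 and 9.23 in Gfi1-KD against 9.37, 9.37 and 9.34 in Gfi1-KI. Its difference of -0.11 (1.08-fold lower) was the smallest of all, and the highest Gfi1-KD array came within a few hundredths of the lowest Gfi1-KI array.

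Ccar1, a coactivator named for its part in cell division and apoptosis, was read by a pair of probe sets. 1436156_at read 10.52, 10.52 and 10.42 in Gfi1-KD and 10.63, 10.82 and 10.69 in Gfi1-KI, a difference of -0.23. 1436157_at read 11.65, 11.69 and 11.60 against 11.73, 11.91 and 11.79, a difference of -0.16. On both, Gfi1-KI replicate 2 was the highest array.

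All 5 genes of the centrosome and spindle had lower means in Gfi1-KD, on 6 probe sets with a median difference of -0.45. Clasp1 (chr1:118389058-118609462) encodes a protein that stabilises the growing ends of microtubules at kinetochores. Its probe set 1427353_at read 5.96, 5.93 and 5.93 in Gfi1-KD and 6.32, 6.44 and 6.48 in Gfi1-KI, a difference of -0.47 (1.39-fold lower), with SDs of 0.018 and 0.087 in that order. Its probe set 1452265_at read 10.40, 10.60 and 10.32 against 10.85, 11.20 and 10.75, a difference of -0.49 (1.41-fold lower) that was -0.36 without Gfi1-KI replicate 2. The differences of both were thus close, while the spread within each group was wider on 1452265_at.

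Kifc5b is a close relative of Kifc1, a minus-end motor that focuses spindle poles. The probe set named for Kifc5b has its only alignment inside Kifc1. This probe set read 5.93, 5.81 and 5.90 in Gfi1-KD and 6.57, 6.23 and 6.50 in Gfi1-KI, a difference of -0.56 (1.47-fold lower). Haus2, a subunit of augmin, which branches new microtubules from those of the spindle, read 7.91, 7.98 and 7.77 against 8.23, 8.22 and 8.50, a difference of -0.43 (1.35-fold lower). On Gfi1-KI replicate 3 it stood above the other arrays of its group.

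Ofd1 (chrX:166386573-166440704), a centriole protein needed for cilia and the gene with the longer Gfi1 motif above, read 8.55, 8.54 and 8.38 in Gfi1-KD and 8.89, 8.76 and 8.70 in Gfi1-KI, a difference of -0.29 (1.22-fold lower). Cep250, which holds the paired centrioles of a centrosome together, read 7.04, 7.13 and 6.89 against 7.27, 7.36 and 7.22, a difference of -0.27 (1.2-fold lower). The Gfi1-KD arrays lay below the Gfi1-KI arrays in each, by a gap smaller than the range within either group.

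Of the 7 signalling and kinase members, 6 had higher means in Gfi1-KD. Rassf4 (chr6:116633008-116673836), a Ras association domain protein of a family with tumor suppressor members, had the largest difference of all members. Its probe set 1439622_at read 11.58, 11.59 and 11.89 in Gfi1-KD and 10.86, 10.67 and 10.78 in Gfi1-KI. The means were 11.69 ± 0.17 and 10.77 ± 0.10 (SD, n = 3 each), a difference of 0.92 or 1.89-fold. 1431038_at read 7.95, 8.03 and 8.41 against 7.50, 7.32 and 7.48, a difference of 0.70 (1.62-fold). Gfi1-KD replicate 3 was the highest array on both.

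Cib1 (chr7:80227156-80232805), a calcium-binding protein that attaches to an integrin tail and to polo-like kinases, read 7.15, 6.40 and 6.98 in Gfi1-KD and 6.0, 6.04 and 5.87 in Gfi1-KI, a difference of 0.87 (1.83-fold). Its Gfi1-KD values were the most spread of all the higher members (SD 0.39), with replicate 2 nearest to Gfi1-KI. Gak, a kinase that uncoats clathrin vesicles and was named for binding cyclin G, read 6.99, 6.93 and 7.0 against 6.81, 6.71 and 6.65, a difference of 0.25. Vrk1, a nuclear kinase of histone H3 and of the chromatin protein Banf1, read 8.69, 8.59 and 8.82 against 8.48, 8.41 and 8.52, a difference of 0.23. The groups lay close together in both Gak and Vrk1, with the lowest Gfi1-KD array just above the highest Gfi1-KI array. Strada, a pseudokinase that activates the tumor suppressor kinase Lkb1, and Prkce, protein kinase C epsilon, had differences of 0.25 and 0.15. With each array centred on the median of the filled rows, the differences were 0.13 for Strada, 0.13 for Gak, 0.11 for Vrk1 and 0.03 for Prkce.

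Pkn2 (chr3:142790902-142882004), a kinase related to protein kinase C, was the exception with a lower mean. It read 8.13, 8.21 and 8.08 in Gfi1-KD and 8.38, 8.98 and 8.71 in Gfi1-KI, a difference of -0.55 (1.46-fold lower), which was -0.40 without Gfi1-KI replicate 2, its highest array.

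The catalytic subunits of protein phosphatase 1 went opposite ways. Ppp1cb read 8.90, 8.91 and 8.99 in Gfi1-KD and 8.67, 8.54 and 8.74 in Gfi1-KI, a difference of 0.28 (1.22-fold). Ppp1cc read 13.47, 13.55 and 13.41 against 13.66, 13.65 and 13.65, a difference of -0.18 (1.13-fold lower). The Ppp1cb probe set aligns on the strand opposite its gene and that of Ppp1cc at another locus, so neither value can be assigned to its gene alone.

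Among chromatin and repair genes, Phf13, a reader of methylated histone H3 that takes part in chromosome condensation, read 7.75, 7.94 and 7.94 in Gfi1-KD and 7.46, 7.48 and 7.73 in Gfi1-KI, a difference of 0.32. Gfi1-KI replicate 3 came close to Gfi1-KD replicate 1. Lig3, the DNA ligase of base excision repair and of mitochondria, read 7.77, 7.74 and 7.80 against 7.92, 7.88 and 8.01, a difference of -0.17. Dclre1a, a nuclease that repairs crosslinked DNA strands, read 4.09, 4.01 and 4.02 against 4.15, 4.22 and 4.19, a difference of -0.15 at low signals.

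The other 7 members serve the cell cycle less directly. Spg20 (spartin), which acts on lipid droplets and in cytokinesis, read 8.07, 7.91 and 8.33 in Gfi1-KD and 7.65, 7.56 and 7.32 in Gfi1-KI, a difference of 0.60 (1.51-fold). Trim21, a ubiquitin ligase that binds antibodies inside cells, was higher by 0.37 on the log2 scale. Becn1 (beclin), a core autophagy gene, read 5.80, 5.72 and 5.74 against 5.89, 5.91 and 5.90, a difference of -0.15. Vcpip1, a deubiquitinase of Golgi reassembly after mitosis, Ttyh1, a membrane protein, Brinp1, known from neurons, and 2610301H18Rik, which has no role given here, had differences of -0.25, -0.18, -0.16 and -0.15. Brinp1 had the smallest p of the members in the authors' deposited table, 0.000247. Its difference was among the smallest, and its SDs were 0.013 and 0.018, in Gfi1-KD and Gfi1-KI.

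**Figure D2:**
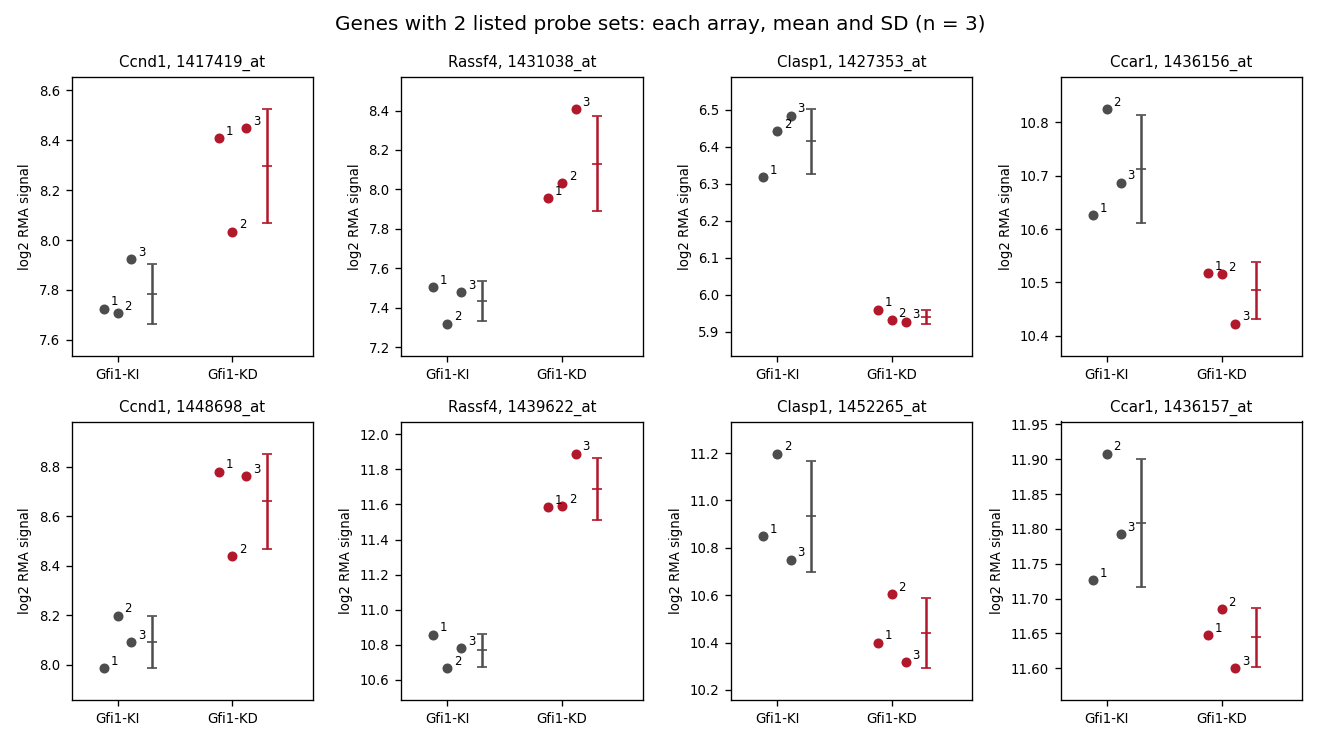
RMA log2 signal on each array for the 4 member genes with a pair of probe sets. Small numerals are replicate numbers, bars are the mean and SD (n = 3), and each panel has its own y axis. For Ccnd1 and Rassf4 the Gfi1-KD arrays lie higher on both probe sets, and for Clasp1 and Ccar1 lower on both.

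For Ccnd1, Rassf4, Clasp1 and Ccar1, both listed probe sets had the same direction. Each had to pass the same p-value limit, and probe sets of these genes outside it are not named, so this is no separate observation of a gene.

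The MAS5 signals are a second summary of the same arrays. They gave the same direction as RMA for 34 of the 35 probe sets, and 2610301H18Rik was the exception, at 0.26 with MAS5 and -0.15 with RMA. The share over all filled rows was not computed, so nothing is read from this count. Among the 26 tested member probe sets, the MAS5 values of the groups did not overlap for 7 with a higher mean and 9 with a lower mean, while 10 overlapped. Over all 22519 tested probe sets 6.77% did not overlap with a higher and 4.57% with a lower mean in Gfi1-KD. The members had been chosen on the same contrast of the same arrays, so nothing is read from their larger share. Largest among the tested members were Rassf4 (1439622_at, log2 difference 0.98 ± 0.18, SE of limma), Spg20 (0.78 ± 0.25), Ccnd1 (1448698_at, 0.77 ± 0.25) and, in the other direction, Kifc5b (-1.06 ± 0.26), Clasp1 (1452265_at, -0.56 ± 0.18) and Pkn2 (-0.55 ± 0.24).

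**Figure D3:**
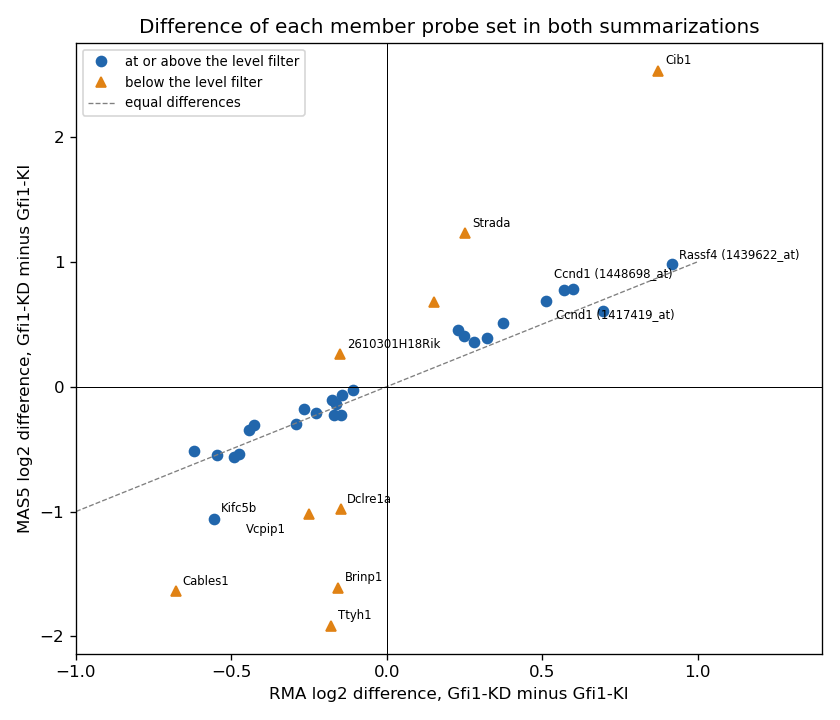
Difference between the group means (Gfi1-KD minus Gfi1-KI, log2) of each member probe set in the RMA signals (x axis) and the MAS5 signals (y axis). Circles are the 26 probe sets at or above the level filter and triangles the 9 below it. Cib1, Ttyh1 and Brinp1, below the filter, lie far from the line of equal differences, with Cib1 at 2.53 in MAS5 and 0.87 in RMA, and Kifc5b does so among the tested probe sets.

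The remaining 9 probe sets lay below the level filter and were not tested: Cib1, Strada, Prkce, Cables1, Dclre1a, Brinp1, Ttyh1, Vcpip1 and 2610301H18Rik. In each, the MAS5 difference was larger in size than the RMA difference, with medians of 1.23 and 0.18. Among the 26 tested probe sets the medians were 0.40 and 0.35, and the MAS5 difference was larger in 16. Cib1 (2.53 with MAS5, 0.87 with RMA), Ttyh1 (-1.92, -0.18), Cables1 (-1.64, -0.68), Brinp1 (-1.61, -0.16) and Strada (1.23, 0.25) thus have a size that depends on the summary. In Cdk5 the MAS5 difference was -0.03 and in Cables2 -0.07, with an SE of 0.23 and 0.18.

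Some probe sets lie where more than the named gene can be read. Of the 35, 31 have an alignment that overlaps the interval of their gene in GRCm38 and 3 do not. The gene 2610301H18Rik has no interval in the reference. The Cdc73 probe set aligns 2237 bases outside its gene. That of Kifc5b (gene at chr17:26917091-26932579) has its only alignment at chr17:33889298-33890308, inside Kifc1 (chr17:33875664-33890633) and on the strand of Kifc1. By this alignment it lies in Kifc1 and not in Kifc5b. The probe sequences were not checked, and its value cannot be assigned to Kifc5b. That of Ppp1cc, whose gene is on chromosome 5, aligns to chr7:119739966-119742222, within the related gene Ppp1ccb. The Ppp1cb probe set overlaps its gene but on the opposite strand and carries the lowest annotation grade of the members (E). The alignments of both Ccnd1 probe sets overlap the interval of the opposite-strand gene LTO1 (chr7:144915100-144930748). The annotation also notes transcripts matched on the negative strand, by up to 10 probes for Ccnd1 1448698_at. It notes up to 11 such probes for Pkn2 and up to 11 for Ppp1cb, and none for Ccnd1 1417419_at. The Becn1 probe set overlaps the opposite-strand gene Cntd1, that of Cep250 the opposite-strand gene 6430550D23Rik and that of 2610301H18Rik the opposite-strand gene Rbl1. Cables2 has a further alignment that overlaps the pseudogene Gm6190. Over the 30 probe sets that overlap their gene on its strand, or on an unknown strand, 12 were higher and 18 lower.

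The array at the edge of its group was counted for the members and for the other filled rows. In the 22 lower probe sets, Gfi1-KI replicate 2 was the highest Gfi1-KI array in 11, and it was so in 36.9% of the other lower filled rows. Gfi1-KD replicate 3 was the lowest of its group in 11 of the 22 (46.4% of the others). In the 13 higher probe sets, Gfi1-KD replicate 3 was the highest of its group in 7 (48.2% of the others) and Gfi1-KI replicate 2 the lowest of its group in 7 (44.6%). Gfi1-KI replicate 1 was the highest of its group in 4 of the 13 (52.0% of the others). These shares were not tested, and no trait of the members is read from them. Leaving out any array, or centring the arrays on the median of the filled rows, reversed 0 of 245 recomputed RMA differences. The RMA values of the groups overlapped in no member probe set, so leaving out an array could not reverse any. Centring shifted each difference by 0.12, less than the smallest higher one, 0.15 in Prkce. Nothing is therefore read from the count.

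Other genes of these pathways could be followed only where the authors' deposited table names them. Of 37 genes of the entry into replication (G1/S), 2 were named and both had higher means, Ccnd1 and E2f6, a repressing E2F factor (RMA difference 0.32). Of 38 genes of mitotic entry and mitosis (G2/M), 4 were named and all had lower means: Wee1, Cenpa, the histone of centromeres (-1.21), Cenpf, a kinetochore protein (-0.43), and Top2a, a topoisomerase (-0.40). Of 20 DNA damage and repair genes 3 were named, with Lig3 and Dclre1a lower and Parp1, which senses DNA breaks, higher (0.50). The centrosome and spindle list had 6 of 24 named, the 5 members and Cep152 (-0.22), all lower, and the protein phosphatase 1 list 2 of 8, Ppp1cb and Ppp1cc. None of the named genes passed the adjusted test, and unnamed genes of the lists were not analysed here. Probe sets of the named genes outside the p-value limit are not named either, so each direction covers only the listed probe sets. The lists were chosen with earlier results known and include members, so no pattern between cell cycle phases is read from these counts.

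Over all 64 filled probe sets that the same annotation terms take in, 20 had a higher and 44 a lower mean in Gfi1-KD, with a median difference of -0.23. Without the members there were 29 probe sets of 22 genes, 7 higher and 22 lower (median -0.29). These rows were selected by the same p-value as the members.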

How the data were processed

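Bone marrow RNA of 3 Gfi1-KD and 3 Gfi1-KI mice was compared. Groups follow the genotype label, and replicate numbers follow accession order. The deposited value table gives a linear intensity for each probe set on each array, from MAS5 as the submitters' processing notes name it. The authors deposited a second table with log2 RMA signals, per the file headers. It adds an unadjusted p-value and a step-up p-value from a variance analysis of kd and wt, a kd/wt ratio and a signed fold score, per the file headers. Here wt was taken to mean Gfi1-KI, and no source used here names the software. Its 1986 non-control rows with values each have a p under 0.05, and only they carry gene names.

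MAS5 signals under 1 were set to 1 (455 of 270606) and log2 was taken. Non-control probe sets with a mean at or above the median of all (6.95) were tested with limma 3.58.1 (R 4.3.3; lmFit, eBayes with trend), two-sided, with Benjamini-Hochberg adjustment. The procedure was tested on simulated data. An exact permutation test of 3 against 3 arrays cannot go below 0.1. RMA differences are group means with SD and carry no test, since they chose the members. The number of arrays limits the precision. Python 3.11.15 with pandas 2.3.3 made the tables.

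All members are named. Values on each array are given for the 5 largest differences in each direction, for genes with several probe sets and for genes central to the cell cycle by textbook role. Members, roles and lists were chosen with earlier results of these data known. Gene intervals and promoters come from RefSeq (GRCm38.p6), the probe set alignments from the authors' deposited table, with 1 added to each start. Alternatives were no or a stricter level filter, quantile normalization, median centring, added constants of 16 and 64, eBayes without trend, array weights, the other summary and leaving out each array.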

Additional observations from a re-analysis of the deposited data

How the results depend on the processing

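The count of called probe sets was 0 under each alternative (no level filter or a minimum of 8, quantile normalization, median centring, 16 or 64 added, eBayes without trend, array weights, and each array left out), while 539 to 2126 had an unadjusted limma p under 0.05 with the level filter or its stricter form and 2311 without it. Of the 35 member probe sets, 34 had the same direction in MAS5 as in RMA under quantile normalization, median centring and either constant, and 32 to 34 with 1 array left out. The MAS5 difference of 3 members changed sign in some setting. 2610301H18Rik was -0.15 with RMA in place of MAS5. Becn1 ran from -0.87 to 0.19 over the arrays left out, with 0.19 without Gfi1-KD replicate 2. Cdk5 was 0.078 with array weights and ran from -0.16 to 0.11 over the arrays left out, and was 0.11 when Gfi1-KD replicate 2 and 0.09 when Gfi1-KI replicate 2 was omitted. The cause was not tested. Centring on the median of the filled rows shifted each RMA difference by 0.12, which moved 20 of them by more than the spread between replicates and turned none. It changed 17 of them by over 1.5 times: 6 higher members came nearer to 0 (Prkce 0.03, Vrk1 0.11, Gak 0.13, Strada 0.13, Ppp1cb 0.16, Phf13 0.20), and 11 lower probe sets, among them Cdk5 (-0.23), moved away from it. Leaving out an array moved no RMA difference by over 1.5 times, but it did so for 14 MAS5 differences. Of those printed, Brinp1 was -0.95 without Gfi1-KI replicate 2, 2610301H18Rik ran from 0.08 to 0.60 and Cables2 from -0.11 to -0.03 over the arrays left out. No paired analysis was possible because the replicate numbers only name the arrays. The 9 members below the level filter had a mean log2 MAS5 signal under 6.95. How near these signals lie to background, and whether that affects either summary, was not tested. Members whose p missed 0.05 are not listed, so the group holds no member with a small difference and a wide spread.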
